A study of Mus musculus with 16 samples.

Results

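A set of 37 genes that mark the cells of brain blood vessels was followed across the hypothalamus libraries. It holds 18 genes of endothelial cells, 8 of the blood-brain barrier, and 11 of mural cells, of which 8 mark pericytes and 3 smooth muscle. Members were taken as the rows whose symbol matched a listed gene, which gave 36 of the 15983 genes in the table of OLZ+MINO, OLZ and CTRL and 37 of the 16005 genes in the table of MINO and CTRL. Sox18, an endothelial transcription factor, was present in the MINO table only. The expression was measured by RNA-seq of whole hypothalamus from female C57BL6/J mice, with 4 mice and 1 library per mouse in each group. OLZ+MINO mice received the antipsychotic olanzapine in a high fat diet (54 mg per kg of diet) and the antibiotic minocycline in the drinking water (0.6 mg/mL), OLZ mice the olanzapine diet alone, MINO mice the control diet with minocycline, and CTRL mice the control diet. All groups ate a diet with 45 kcal% from fat, for 12 weeks from an age of 10 weeks, so no library comes from a mouse on a lower fat diet.

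Brain capillaries are lined by endothelial cells that are sealed to each other by tight junctions and carry transporters for glucose, amino acids, lipids and drugs. These cells are wrapped by pericytes, and larger vessels by smooth muscle, and signals between endothelial and mural cells maintain the barrier. The base of the hypothalamus also holds the median eminence, where capillaries are fenestrated and lack this barrier.

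The values are whole numbers treated here as scaled counts (read counts times a factor per library, rounded), with library totals of 8435016 to 9279227 in the table of 3 groups and 8783427 to 9447616 in the MINO table. The vessel markers were detected in every library and no member was listed at 0 in any of them. Of the 36 members of the first table, 23 averaged at least 50 scaled counts over its 12 libraries, and 13 averaged less, which leaves a larger counting error on them. The means ran from 11.2 for Higd1b, a pericyte marker, to 640 for Vwf, the endothelial von Willebrand factor. Divided by exonic length, the CTRL means ran from 2.93 scaled counts per kb for Sox17, an endothelial transcription factor, to 147 per kb for Itm2a, a membrane protein of endothelial cells. On the same scale per length, Rgs5, a regulator of G protein signalling in pericytes, followed at 131 per kb and Slc2a1, the glucose transporter of the barrier, at 122 per kb. The smooth muscle genes were lower, at 16.8 per kb for Acta2, 11.3 per kb for Tagln and 7.11 per kb for Myh11.

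The promoters of 3 members are shown, because Abcc9, Slco1a4 and Tie1 were the members whose groups separated in a comparison below. Each runs from 250 bases before to 50 bases after the RefSeq start site (GRCm38.p6), written 5′ to 3′ on the strand of the gene. Capitals mark AGGAAG, a core recognised by ETS factors such as the endothelial regulator Erg, and the GC box GGGCGG, each searched on both strands, with CTTCCT and CCGCCC as their complements. The motifs can share an end base, and did not overlap in these 3 windows.
Abcc9, chr6:142702225-142702524, minus strand: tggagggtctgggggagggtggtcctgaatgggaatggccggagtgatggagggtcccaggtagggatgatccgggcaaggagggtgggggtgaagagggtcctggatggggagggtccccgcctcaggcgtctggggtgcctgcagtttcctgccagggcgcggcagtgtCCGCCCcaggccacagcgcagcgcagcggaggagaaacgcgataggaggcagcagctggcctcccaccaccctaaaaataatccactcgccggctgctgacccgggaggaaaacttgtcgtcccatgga
Slco1a4, chr6:141856171-141856470, minus strand: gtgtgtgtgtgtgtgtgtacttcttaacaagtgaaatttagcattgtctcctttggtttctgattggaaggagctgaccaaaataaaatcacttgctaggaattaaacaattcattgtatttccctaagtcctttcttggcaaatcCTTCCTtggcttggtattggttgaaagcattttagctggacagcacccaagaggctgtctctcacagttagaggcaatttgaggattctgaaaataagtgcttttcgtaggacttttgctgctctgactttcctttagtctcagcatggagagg
Tie1, chr4:118489800-118490099, minus strand: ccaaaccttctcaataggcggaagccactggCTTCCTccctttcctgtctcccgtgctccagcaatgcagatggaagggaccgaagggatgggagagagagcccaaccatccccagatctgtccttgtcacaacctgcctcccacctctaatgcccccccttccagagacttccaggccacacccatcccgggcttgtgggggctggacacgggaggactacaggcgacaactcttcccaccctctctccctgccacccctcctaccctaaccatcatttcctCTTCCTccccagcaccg
Slco1a4 held CTTCCT starting 104 bases before the start, and Tie1 held it starting 219 bases before and at base 34 after the start. Abcc9 held no AGGAAG or CTTCCT in this window and 1 GC box, as CCGCCC, starting 79 bases before the start. Of 32851 promoters in the RefSeq table, 35.4% held AGGAAG and 35.7% the GC box, against 15 and 13 of the 32 promoters found for 24 of the members. A match describes the letters and not a site in use.

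Before the groups are compared, the position of each library is given, since 2 libraries stood apart over the vessel genes. The mean deviation of the 36 members from their mean over the 12 libraries was 0.43 on the log2 scale in OLZ mouse 13 and 0.67 in CTRL mouse 4, against -0.28 to 0.07 in the other 10. OLZ mouse 13 was the highest OLZ library for 24 of the 36 members, and CTRL mouse 4 the highest CTRL library for 29. CTRL mouse 4 was also the highest of all 12 libraries for 19 members, and OLZ mouse 13 for 8. The summed level of the members was 4203 to 4770 scaled counts in OLZ+MINO, 4091 to 5861 in OLZ and 4200 to 6927 in CTRL, so the lowest libraries of the 3 groups lay close together and the highest did not. OLZ+MINO mouse 48 stood apart in the labelled tissue, since 8 markers of hypothalamic neurons (Avp, Oxt, Pmch and Hcrt among them) summed to 807 scaled counts in it, against 3491 to 9345 in the other OLZ+MINO mice, 4894 to 8601 in OLZ and 5709 to 9402 in CTRL mice. Values without it are given below for the counts and medians of the members and for Abcc9, Tie1 and Slco1a4. The genes of the other vessel lists and the markers of other cell types are given with it included.

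**Figure D1:**
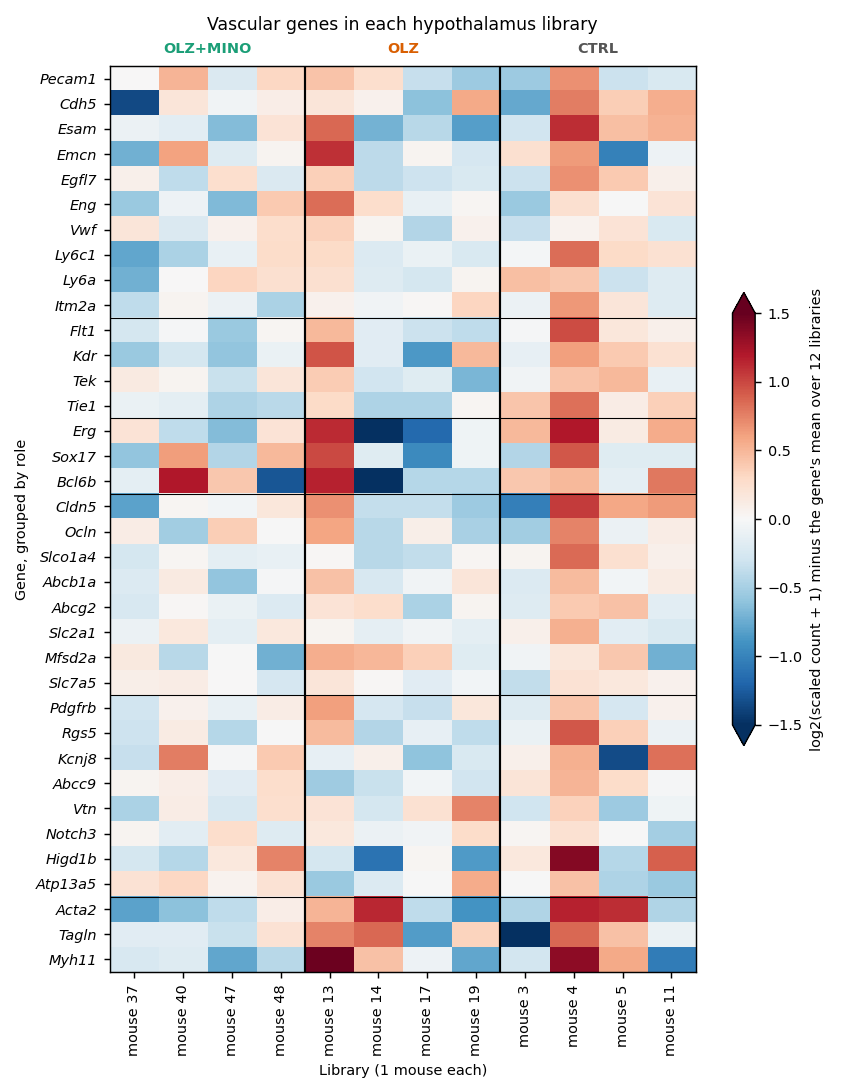
Heat map of the 36 measured members (down the page, grouped by role) in 12 libraries (across, OLZ+MINO, OLZ and CTRL, 1 mouse each); the colour is log2(scaled count + 1) minus the mean of the gene over the 12 libraries. OLZ mouse 13 and CTRL mouse 4 are red over most endothelial and barrier genes, and CTRL mouse 4 over mural genes as well.

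These 2 libraries differed in which vessel genes were high. In OLZ mouse 13 the endothelial members deviated by 0.59, the barrier members by 0.34 and the mural members by 0.24. The 8 pericyte members averaged close to the mean there but went different ways. Pdgfrb had its highest value of the OLZ+MINO, OLZ and CTRL libraries in this mouse, and Abcc9 its lowest. In CTRL mouse 4 the 3 classes deviated by 0.68, 0.55 and 0.74. A further 22 measured endothelial genes that are not members, such as Cd34 and Robo4, deviated in the same 2 libraries, by 0.48 in OLZ mouse 13 and 0.54 in CTRL mouse 4. Red blood cell markers (5 of 7 measured) deviated by 0.60 in OLZ mouse 13, 0.45 in OLZ mouse 14 and 0.47 in CTRL mouse 4. Markers of meningeal and perivascular fibroblasts (12 of 12 measured) deviated by 1.25 in OLZ mouse 13 and 1.86 in OLZ mouse 19, but by -0.38 in CTRL mouse 4. In bulk tissue, more vessel per library and more vessel RNA per cell cannot be told apart, and the part of these markers in the results that follow was not tested.

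**Figure D2:**
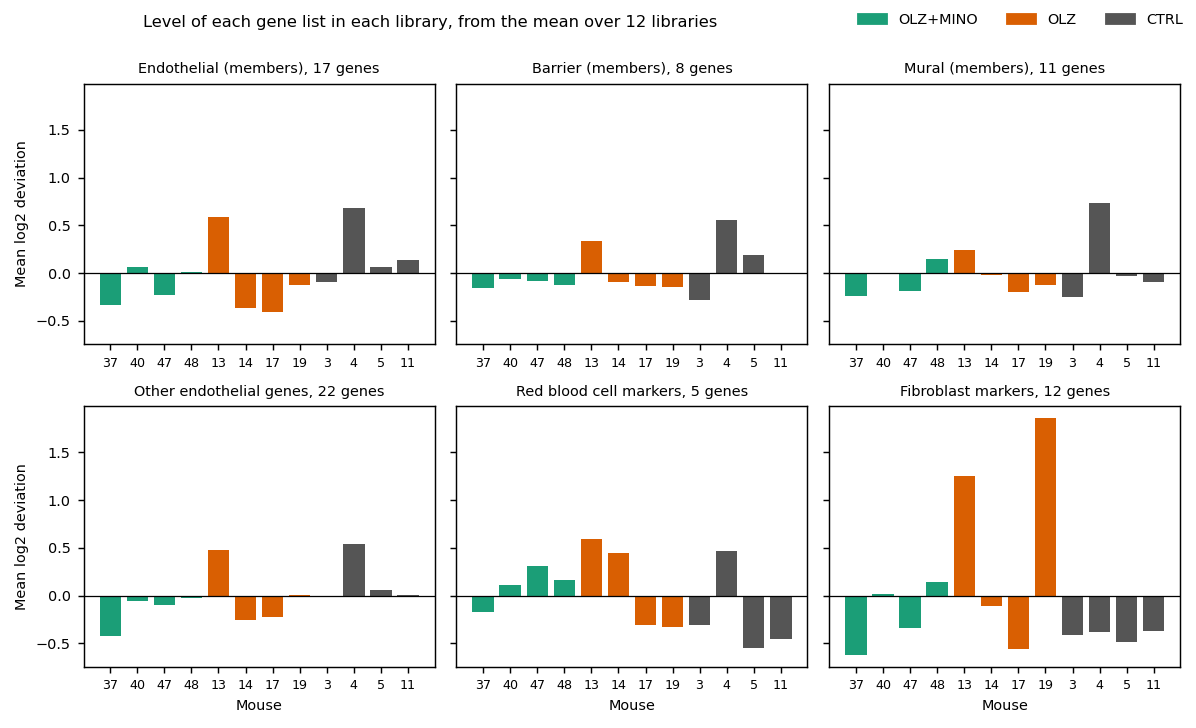
Mean log2 deviation of each gene list from its mean over the 12 libraries (vertical axis) by mouse (horizontal axis, OLZ+MINO, OLZ and CTRL by colour), for the 3 classes of members, 22 other endothelial genes, 5 red blood cell markers and 12 fibroblast markers. The vessel lists peak in OLZ mouse 13 and CTRL mouse 4, and the fibroblast markers in OLZ mice 13 and 19.

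The first question was whether olanzapine changed the vessel genes. Of the 36 members, 1 passed an adjusted p of 0.3 (limma, Benjamini-Hochberg adjustment over all genes; the study applies the same number to a local false discovery rate, which is another quantity) and 0 passed 0.05, where 3.64% of all genes passed 0.3 (1.82% rose and 1.82% fell). The gene was Abcc9, the sulfonylurea receptor subunit of the ATP-sensitive potassium channel of pericytes, and it fell. It had 85, 98, 120 and 101 scaled counts in OLZ mice, against 141, 177, 150 and 122 in CTRL mice. The highest OLZ mouse lay just below the lowest CTRL mouse, so the groups did not overlap. Abcc9 averaged 101 ± 14.4 in OLZ and 147.5 ± 22.9 in CTRL mice (SD, n = 4 each), a log2 fold change of -0.54 with a standard error of 0.15 and an adjusted p of 0.22 in limma, or a two-sided exact permutation p of 0.0286, the smallest that 4 against 4 can give. The call was lost without OLZ mouse 13, 14 or 19 or without CTRL mouse 3 or 11 (adjusted p 0.55, 0.40, 0.35, 0.41 and 0.39), while the log2 fold change stayed between -0.63 and -0.45 over all omissions of 1 library. Without OLZ mouse 13, 2 of all genes were called.

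Kcnj8, the pore subunit that pairs with Abcc9 in this channel and its neighbour on chromosome 6, was low and scattered. It had 13, 15, 9 and 12 scaled counts in OLZ mice, against 15, 21, 5 and 26 in CTRL mice, and the groups overlapped (log2 fold change -0.24 with a standard error of 0.47).

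Slco1a4, an organic anion transporter of the barrier, lay just outside the threshold. It had 223, 165, 170 and 225 scaled counts in OLZ mice, against 227, 398, 261 and 232 in CTRL mice, which did not overlap by a margin of 2 scaled counts. The log2 fold change was -0.49 with a standard error of 0.17 and an adjusted p of 0.30 (limma; 0.3007 before rounding), and -0.31 without CTRL mouse 4. Slco1a4 has close relatives in the same gene cluster, and reads shared with them could have been split in counting. Together with Abcc9 it made 2 of 36 members that were lower without overlap, where 3.31% of all genes were, and 0 members were higher without overlap, where 3.64% were.

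Over the set, 25 of 36 members had a log2 fold change below 0 in OLZ against CTRL, with a median of -0.13, where 49.3% of all genes did and their median was near 0. All 4 endothelial receptor kinases were below 0, namely Flt1 and Kdr, the receptors for vascular endothelial growth factor, and Tek and Tie1, the angiopoietin receptor and its partner, with a median of -0.39. The 3 measured transcription factors Erg, Sox17 and Bcl6b had a median of -0.81 and standard errors of 0.50 to 0.64. The 10 surface and adhesion genes (Pecam1, the cadherin Cdh5, Esam, Emcn, Egfl7, Eng, Vwf, Ly6c1, Ly6a and Itm2a) had a median of -0.09 and ran from -0.72 to 0.29. The 8 barrier genes (Cldn5, the tight junction protein Ocln, the drug exporters Abcb1a and Abcg2, the amino acid transporter Slc7a5, Slco1a4, Slc2a1 and Mfsd2a) had a median of -0.11 and ran from -0.49 to 0.36. The 8 pericyte genes (Pdgfrb, Rgs5, Kcnj8, Abcc9, the secreted vitronectin Vtn, the receptor Notch3, Higd1b and Atp13a5) had a median of -0.10 and ran from -1.04 to 0.37. The 3 smooth muscle genes (Acta2, the actin-binding Tagln and the myosin Myh11) had a median of 0.11 and ran from -0.25 to 0.44. None of these members other than Abcc9 passed the test, and at an unadjusted p of 0.05, 3 of 36 were lower (Tie1, Slco1a4 and Abcc9), where 5.67% of all genes were, and 0 were higher, where 5.76% were. The count depended on which libraries were kept. It was 17 of 36 members, with a median of 0.01, without CTRL mouse 4. It was 30 of 36 and -0.28 without OLZ mouse 13, and 24 of 36 and -0.11 without both. Leaving out CTRL mouse 3, the lowest CTRL library for 18 of the 36 members, moved it the other way, to 30 of 36.

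The other 6 members followed in every library, 3 of endothelium and barrier and 3 of mural cells, overlapped between OLZ and CTRL mice. Pecam1, an adhesion molecule of endothelial junctions, had 127, 112, 74 and 64 scaled counts in OLZ mice, against 64, 152, 75 and 80 in CTRL mice (log2 fold change 0.05 with a standard error of 0.28). Cldn5, the main claudin of the barrier's tight junctions, had 100, 48, 48 and 42 in OLZ mice, against 30, 129, 93 and 97 in CTRL mice, with the lowest and the highest value both in CTRL (-0.46, standard error 0.39). Slc2a1 had 415, 368, 388 and 363 in OLZ mice, against 425, 585, 361 and 344 in CTRL mice (-0.13, standard error 0.14). The highest value was in CTRL mouse 4 for each of these 3 genes. Of the mural genes, Pdgfrb, the receptor that recruits pericytes, had 221, 121, 113 and 162 in OLZ mice, against 126, 192, 121 and 151 in CTRL mice (0.04, standard error 0.20). Rgs5 had 655, 348, 435 and 361 in OLZ mice, against 439, 900, 603 and 444 in CTRL mice (-0.39, standard error 0.23). The top value of Pdgfrb was in OLZ mouse 13, and that of Rgs5 in CTRL mouse 4. Acta2, the smooth muscle actin, had 36, 56, 19 and 13 in OLZ mice, against 18, 57, 55 and 18 in CTRL mice, a high pair and a low pair in each group (-0.25, standard error 0.48). Adjusted p-values of these 6 genes in limma ran from 0.54 to 0.97.

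**Figure D3:**
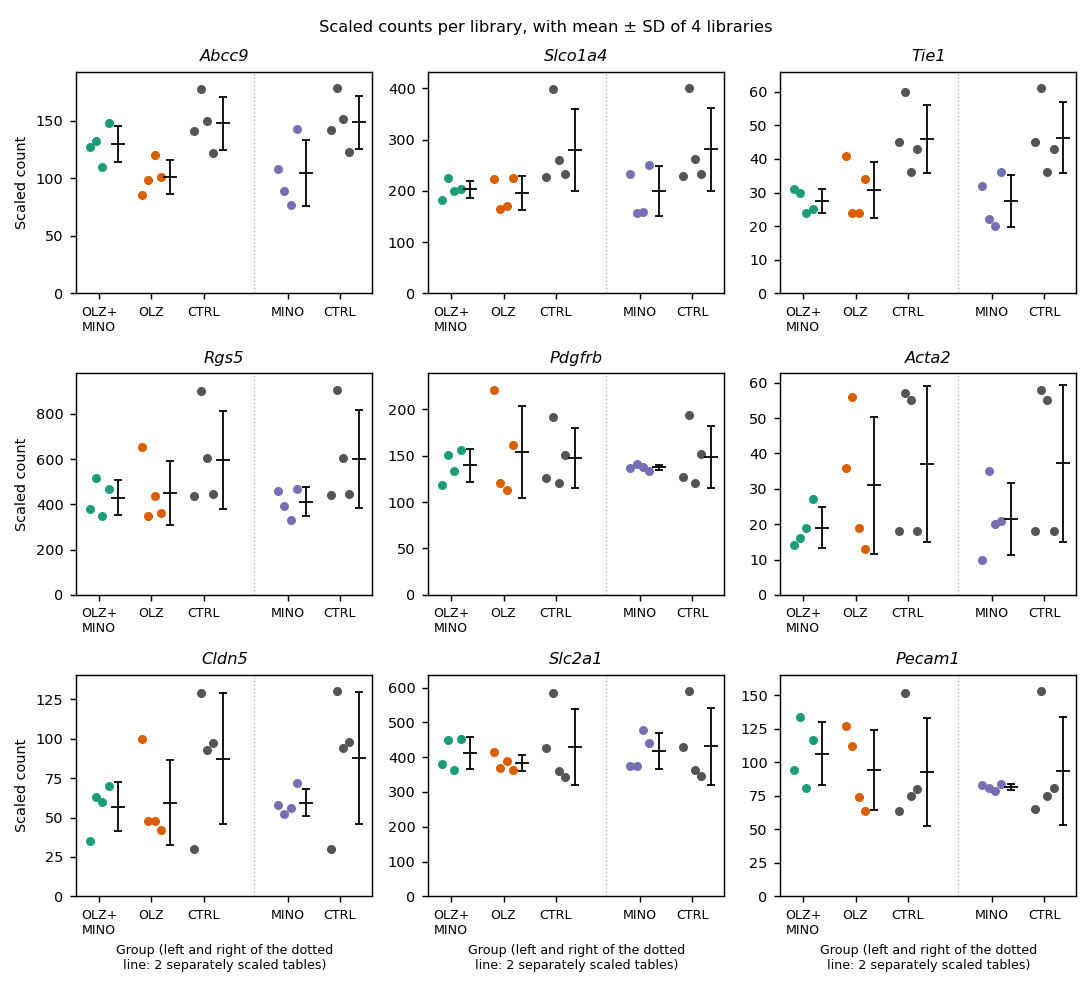
Scaled counts (vertical axis) of 9 members in each library (points) by group, with mean ± SD of 4 mice in black; the 3 groups left of the dotted line and the 2 on its right come from separately scaled tables that share the CTRL mice. Abcc9 in OLZ, Slco1a4 in OLZ and OLZ+MINO and Tie1 in OLZ+MINO lie below every CTRL mouse, while the other genes overlap.

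Markers of other cell types also moved between OLZ and CTRL mice. Of 11 measured tanycyte markers, 11 were above 0 and 7 rose in OLZ against CTRL. Their summed levels were 3587 to 5568 in OLZ and 1896 to 2510 in CTRL. Of 12 fibroblast markers 12 were above 0 and 2 rose (Fmod, a matrix proteoglycan, and Islr). Their sums were 386 to 1816 in OLZ and 407 to 505 in CTRL. Of 8 neuron markers 8 were below 0 and 1 fell (Nefl, a neurofilament), with sums of 17588 to 22461 in OLZ and 22260 to 28239 in CTRL, and 0 of 5 red blood cell markers passed. All 8 oligodendrocyte markers were below 0 and 0 passed (median -0.23), with sums of 21036 to 27868 in OLZ and 19828 to 44582 in CTRL. Of 8 astrocyte markers 1 rose, Gfap, an intermediate filament, at 1522 to 2534 in OLZ and 932 to 1437 in CTRL (0.79, adjusted p 0.16 in limma), and 0 of 8 microglia markers passed, with 7 above 0. Rax, a transcription factor of tanycytes, was at 31 to 87 in OLZ and at 4 to 21 in CTRL mice. Rax itself did not pass (adjusted p 0.35 in limma). Markers of hypothalamic neurons were below 0 in 4 of 8 (median 0.04). Among them, Sim1 was lower without overlap (117 to 245 in OLZ, 260 to 421 in CTRL), where 3.31% of all genes were. Choroid plexus markers were below 0 in 2 of 4 measured and pituitary markers in 1 of 3. No hypothalamic, choroid plexus or pituitary marker passed. The part of these markers in the vessel results was not tested.

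The second question was what minocycline did to the vessel genes in olanzapine-treated mice. Again 1 of 36 members passed the threshold, where 12.4% of all genes did (5.99% rose and 6.36% fell), and it was Abcc9, which rose. Abcc9 had 127, 132, 110 and 148 scaled counts in OLZ+MINO mice, against 85, 98, 120 and 101 in OLZ mice. One OLZ+MINO mouse (110) lay below the highest OLZ mouse (120). Abcc9 averaged 129 ± 15.6 in OLZ+MINO and 101 ± 14.4 in OLZ mice (SD, n = 4 each), a log2 fold change of 0.36 with a standard error of 0.15, an adjusted p of 0.29 in limma and an exact permutation p of 0.0571. The call was lost without OLZ mouse 13, 14 or 19, OLZ+MINO mouse 40 or 48 or CTRL mouse 3 (adjusted p 0.57, 0.42, 0.36, 0.45, 0.56 and 0.32), and when only these 2 groups were fitted (0.31). The OLZ mice enter this comparison and the one with CTRL, so the 2 calls for Abcc9 are not independent.

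Abcc9 was the only member called in both comparisons. In OLZ+MINO against CTRL its log2 fold change was -0.18 with a standard error of 0.15 and an adjusted p of 0.85 in limma.

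Mfsd2a, the lipid transporter that keeps transcytosis low in barrier endothelium, came nearest to the threshold from outside. It had 123, 83, 111 and 67 scaled counts in OLZ+MINO mice, against 163, 158, 143 and 98 in OLZ mice, and the groups overlapped. Its log2 fold change was -0.56 with a standard error of 0.25 and an adjusted p of 0.32 in limma. The CTRL mice, at 107, 125, 148 and 67, covered most of the range of both groups.

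No member separated OLZ+MINO from OLZ mice without overlap, where 4.2% of all genes were lower and 3.5% higher in this way. Of the 36 members 20 were below 0, with a median of -0.03, where 49.2% of all genes were. At an unadjusted p of 0.05 in limma, 1 member was lower (Mfsd2a), where 7.68% of all genes were, and 1 was higher (Abcc9), where 7.2% were. The medians were -0.09 for surface and adhesion genes, -0.12 for receptor kinases, 0.28 for transcription factors, -0.01 for barrier genes, 0.11 for pericyte genes and -0.51 for smooth muscle genes. The 3 smooth muscle genes were within their errors (standard errors of 0.48 to 0.52). Without OLZ mouse 13 the count was 13 of 36 and the median 0.10, and without OLZ+MINO mouse 48 they were 22 of 36 and -0.09. Acta2 had 14, 16, 19 and 27 scaled counts in OLZ+MINO mice, against 36, 56, 19 and 13 in OLZ mice, and Cldn5 had 35, 63, 60 and 70, against 100, 48, 48 and 42. Both genes overlapped between the groups. Pecam1 had 94, 134, 81 and 117 in OLZ+MINO mice, and the corresponding values were 381, 450, 363 and 451 for Slc2a1, 118, 151, 133 and 156 for Pdgfrb and 380, 515, 350 and 470 for Rgs5. For each of these genes the range overlapped that of the OLZ mice given above.

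Other genes of vessel biology were examined as 7 lists of 131 genes, 112 of them measured. In OLZ against CTRL 0 of the 112 passed the threshold by limma, where 3.64% of all genes did. In OLZ+MINO against OLZ 6 rose and 8 fell, which is 12.5% of them beside 12.4% of all genes. Of the ligands, Apln, the ligand of the apelin receptor on endothelial cells, rose (115 to 235 scaled counts in OLZ+MINO, 74 to 125 in OLZ, log2 fold change 0.81), while Angpt1, the Tek ligand made by pericytes, fell (98 to 130 in OLZ+MINO, 123 to 214 in OLZ, -0.46). Edn3, an endothelin, fell without overlap (4 to 16 in OLZ+MINO, 17 to 36 in OLZ, -1.19), and Ednrb, an endothelin receptor, fell with overlap (508 to 870 in OLZ+MINO, 840 to 1031 in OLZ, -0.34). Bmp6 also fell (11 to 22 in OLZ+MINO, 17 to 63 in OLZ, -1.12). Several of these genes, and of those from the other vessel lists named below, are also made by neurons or glia.

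In the Wnt pathway that induces the barrier, Tcf7, a transcription factor, rose (8 to 31 scaled counts in OLZ+MINO, 4 to 9 in OLZ, 1.21), and the coreceptor Lrp6 fell (-0.20). Among barrier transporters Abcb1b fell (18 to 36 in OLZ+MINO, 30 to 50 in OLZ, -0.73), whereas its close copy Abcb1a, the P-glycoprotein of the mouse barrier and a member, did not pass (-0.25, standard error 0.19, adjusted p 0.57 in limma). Reads shared by Abcb1a and Abcb1b could have been split in counting. The matrix proteoglycan Spock2 rose (0.20). Of other endothelial genes Epas1, a hypoxia-inducible factor, rose without overlap (849 to 1057 in OLZ+MINO, 799 to 809 in OLZ, 0.21), and fibronectin, Fn1, fell (146 to 231 in OLZ+MINO, 157 to 849 in OLZ, -0.80). Of other mural genes Gucy1a3, a subunit of soluble guanylate cyclase, rose (0.35), and the Notch target Heyl fell (-0.41). The arterial and venous genes (9 measured) had 0 calls. Plvap, the diaphragm protein of fenestrated capillaries, had 23 to 33 in OLZ+MINO, 23 to 65 in OLZ and 14 to 50 in CTRL mice, with log2 fold changes of 0.08 in OLZ against CTRL and -0.28 in OLZ+MINO against OLZ, and did not pass in either.

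Markers of other cell types again moved between these groups. In OLZ+MINO against OLZ, 8 of 11 tanycyte markers fell, with sums of 1863 to 3334 in OLZ+MINO and 3587 to 5568 in OLZ, and 5 of 8 neuron markers and 4 of 8 oligodendrocyte markers rose. All 8 microglia markers were below 0 and 3 fell (Tmem119, Csf1r and C1qb), with sums of 1579 to 1901 in OLZ+MINO and 2026 to 2131 in OLZ. Of the 8 astrocyte markers 2 fell, Gfap (922 to 1601 in OLZ+MINO, 1522 to 2534 in OLZ, -0.70) and the glutamate transporter Slc1a3 (-0.30). Of the 12 fibroblast markers 1 fell, with sums of 357 to 650 in OLZ+MINO and 386 to 1816 in OLZ. Of the 8 markers of hypothalamic neurons 6 were below 0 (median -0.80) and 2 fell, Avp and Gal. Of 4 measured choroid plexus markers 1 rose, Otx2 (2 to 54 in OLZ+MINO, 1 to 14 in OLZ, 2.31). Another 2 of them fell, Kl (-0.89) and Clic6 (-0.57). Of 3 measured pituitary markers 0 passed. The part of all these markers in the changes of the vessel genes was not tested.

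With both drugs, the vessel genes of OLZ+MINO mice were set against CTRL. No member passed the threshold in limma, where 0.025% of all genes did, and 4 of 36 had an unadjusted p under 0.05, where 6.19% of all genes did. All 4 were lower, where 2.95% of all genes were, and 0 were higher, where 3.24% were. These were Tie1, Flt1, Slco1a4 and Ly6c1, a surface antigen of brain endothelium whose reads may be shared with its close copy Ly6c2. Tie1 had 31, 30, 24 and 25 scaled counts in OLZ+MINO mice, against 45, 60, 36 and 43 in CTRL mice, without overlap. Its log2 fold change was -0.71 with a standard error of 0.26, an adjusted p of 0.79 in limma and an exact permutation p of 0.0286, and -0.57 without CTRL mouse 4. Slco1a4 had 183, 225, 199 and 204 in OLZ+MINO mice, against 227, 398, 261 and 232 in CTRL mice, without overlap by a margin of 2 scaled counts (-0.43, standard error 0.17, adjusted p 0.79). These 2 genes made up the members lower without overlap, 2 of 36, where 1.47% of all genes were, and 0 were higher, where 1.46% were.

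Of the members, 29 of 36 were below 0 in OLZ+MINO against CTRL, with a median of -0.23, where 49.8% of all genes were. All 8 barrier genes (median -0.23) and 15 of the 17 endothelial genes (median -0.34) were below 0, and 6 of the 11 mural genes (median -0.06). Without CTRL mouse 4 these counts were 5 of 8, 13 of 17 and 5 of 11, and the median of all members was -0.12. That median was -0.35 without CTRL mouse 3. Without OLZ+MINO mouse 48, 29 of 36 members were below 0 with a median of -0.23, and the log2 fold change was -0.66 for Tie1 and -0.43 for Slco1a4. No marker of another cell type passed the test in this comparison. Microglia markers were below 0 in 7 of 8, with sums of 1579 to 1901 in OLZ+MINO and 1789 to 1957 in CTRL. Among them, Tmem119 and Csf1r were lower without overlap, where 1.47% of all genes were. Neuron markers were below 0 in 4 of 8. The neuron marker Rbfox3 was higher without overlap (506 to 592 in OLZ+MINO, 432 to 481 in CTRL), where 1.46% of all genes were. The 8 oligodendrocyte markers (median 0.20) and 5 red blood cell markers (median 0.28) were all above 0. The 8 markers of hypothalamic neurons were all below 0 (median -0.83), with OLZ+MINO mouse 48 included. Their part in the vessel values was not tested. In OLZ against CTRL, Tie1 had 41, 24, 24 and 34 scaled counts in OLZ mice, so 1 OLZ mouse lay within the CTRL range (-0.58, standard error 0.26, adjusted p 0.41 in limma).

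**Figure D4:**
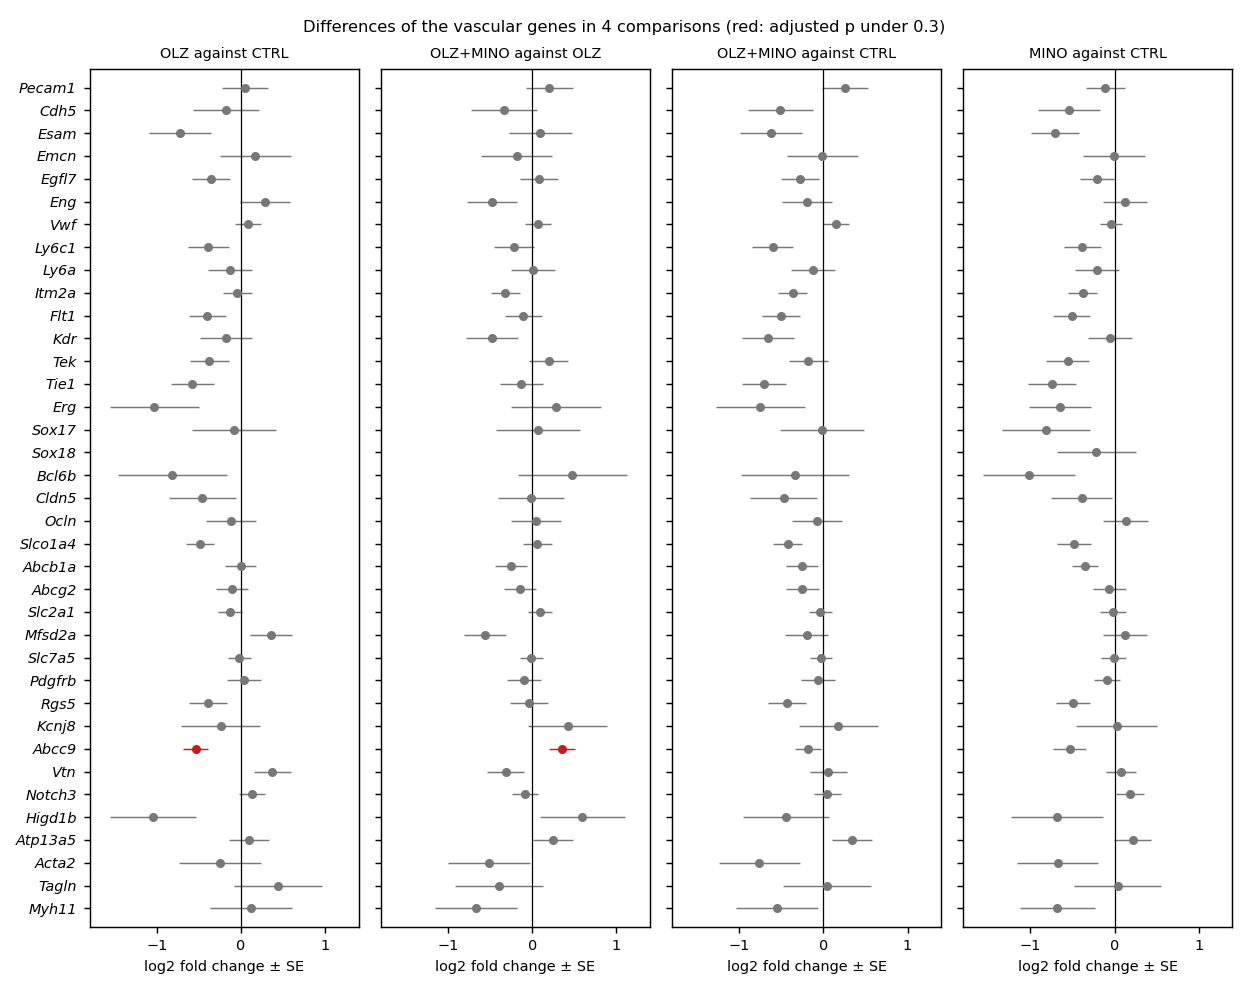
Log2 fold change with its standard error (horizontal axis) of each member (down the page) in the 4 comparisons; red marks an adjusted p under 0.3 in limma. Abcc9 is the only gene in red, below 0 in OLZ against CTRL and above 0 in OLZ+MINO against OLZ. Comparisons with CTRL share the same 4 CTRL mice.

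Minocycline alone was compared with CTRL in the second table. No member and no other gene passed the threshold (limma, 0% of all genes), and 6.41% of all genes had an unadjusted p under 0.05. At that level 9 of 37 members were lower, where 3.41% of all genes were, and 0 were higher, where 3.01% were. The 9 genes were Abcc9, Rgs5, Slco1a4, Abcb1a, Tie1, Tek, Flt1, Itm2a and Esam, an adhesion molecule of endothelial junctions, each with an adjusted p of 0.77. None of them was without overlap, and 0 members were, where 1.87% of all genes were lower and 1.38% higher in this way. Abcc9 had 108, 89, 77 and 143 scaled counts in MINO mice, against 142, 178, 151 and 123 in CTRL mice, with 1 MINO mouse inside the CTRL range (-0.53, standard error 0.19). Tie1 had 32, 22, 20 and 36 in MINO mice, against 45, 61, 36 and 43 in CTRL mice, which met at 36 (-0.74, standard error 0.28). Slco1a4 had 233, 156, 158 and 250 in MINO mice, against 228, 400, 262 and 233 in CTRL mice (-0.49, standard error 0.20). For Abcc9 and Tie1, 3 of 4 MINO mice lay below every CTRL mouse, and for Slco1a4 2 of 4. All 9 genes share the same CTRL mice, with mouse 4 among them. Without CTRL mouse 4 the log2 fold change was -0.30 for Slco1a4 and -0.27 for Rgs5. That of Abcc9 stayed between -0.70 and -0.40 over all omissions of 1 library.

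Of the 37 members 29 were below 0 in MINO against CTRL, with a median of -0.22, where 49.5% of all genes were. The medians were -0.38 for the endothelial genes (17 of 18 below 0), -0.04 for the barrier genes (6 of 8) and -0.09 for the mural genes (6 of 11). The 22 other endothelial genes measured had a median of -0.18, with 20 below 0 and 0 passing the test. CTRL mouse 4 was the highest CTRL library for 30 of the 37 members and the highest of the 8 libraries for 26. Without it 20 of 37 members were below 0 and the median was -0.11, with 12 of 18 endothelial, 3 of 8 barrier and 5 of 11 mural genes below 0. Leaving out CTRL mouse 3 instead gave 31 of 37 members below 0 and a median of -0.45. Pecam1 had 83, 81, 79 and 84 in MINO mice, against 65, 153, 75 and 81 in CTRL mice, and Pdgfrb had 137, 141, 138 and 134, against 127, 194, 121 and 152. Cldn5 had 58, 52, 56 and 72 in MINO mice, against 30, 130, 94 and 98 in CTRL mice, and Slc2a1 had 376, 374, 479 and 440, against 428, 589, 362 and 346. For all 4 genes the MINO mice lay inside the CTRL range. Rgs5 had 459, 391, 329 and 467 in MINO mice, against 441, 906, 606 and 446 in CTRL mice, and Acta2 had 10, 35, 20 and 21, against 18, 58, 55 and 18.

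In this comparison 11 of 11 tanycyte markers and 5 of 5 red blood cell markers were above 0, with sums of 1931 to 4128 in MINO and 1907 to 2521 in CTRL mice for the tanycyte markers and 3075 to 8511 in MINO and 2890 to 5972 in CTRL mice for the red blood cell markers. Fibroblast markers were above 0 in 10 of 11, while 8 of 8 oligodendrocyte and 6 of 8 neuron markers were below 0. Of the markers of hypothalamic neurons 4 of 8 were below 0, and Pmch was lower without overlap (1428 to 3499 in MINO, 3927 to 5724 in CTRL). Aqp4, an astrocyte marker, was higher without overlap (1585 to 1731 in MINO, 1035 to 1519 in CTRL). So was Cga, a pituitary marker (4 to 93 in MINO, 0 to 2 in CTRL). None of these markers passed the test, and their part in the vessel values was not tested.

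Within groups, the spread of the vessel genes set what these comparisons could resolve. The median over members of the ratio between the highest and the lowest library was taken over 4 libraries in each group. It was 1.60 in OLZ+MINO, 1.57 in MINO, 1.95 in OLZ and 1.996 in CTRL mice. Over the 3 libraries left, it was 1.43 in OLZ without mouse 13 and 1.47 in CTRL without mouse 4. This ratio cannot grow when a library is left out, so the values over 3 libraries are not comparable with those over 4. The median standard error of the log2 fold change in the first table was 0.25 for the members and 0.16 for all genes. It was 0.18 for all genes within the members' range of means, which were not matched more closely for level.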

How the data were processed

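RNA was extracted with TRIZOL and libraries were made with TruSeq kits, from 16 mice in 4 groups of 4. Bowtie2 (mapping), RSEM (counting per gene) and limma are the tools named by the authors, and mm9 is the build in the submitters' processing notes. Their versions, the scaling method and any low-value filter were not stated in what was read here. The deposited values are whole numbers, treated here as a scaled signal, that is read counts times a factor per library. The CTRL libraries differ between the 2 tables by factors of 1.0048 to 1.00615, which shows that the tables were scaled differently and not how the values were made. The deposited columns of ratios, fold changes and false discovery rates were not used.

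Because the values are not raw counts, the test was limma (3.58.1, in R 4.3.3, with an intensity trend) on log2 values after adding 1. OLZ+MINO, OLZ and CTRL were fitted together, and MINO with CTRL apart from them, as each table has its own scaling. Adjustment for multiple tests (Benjamini-Hochberg) covered every gene of a table, with thresholds of 0.3 and 0.05. Fold changes on this scale understate changes of low genes. A threshold of 0.3 accepts a larger share of false calls than 0.05. Single genes also had two-sided exact permutation tests. Library factors were not fully recoverable, so depth in reads is unknown. The code was tested on simulated data.

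Members and lists were chosen with earlier results of these data known. All 37 members are accounted for. Values per library are given for those called or without overlap in any comparison and for Cldn5, Pecam1, Slc2a1, Pdgfrb, Rgs5 and Acta2, and Kcnj8 and Mfsd2a were added after their values were seen. From the vessel lists, genes that passed the test are named, and Plvap; 1 item is not reported here. Exonic lengths come from GENCODE M21 (GRCm38), another build than the files', and promoters from RefSeq, with 24 of 37 members matched. Alternatives changed the pseudocount (0.1, 8), a minimum mean (50), the scaling, the trend, the weights, the groups fitted and the libraries. Leaving out CTRL mouse 4 and OLZ mouse 13 together, and scaling to the mean of the vessel genes, were chosen after seeing the data. The labels do not say whether mice shared a cage or a litter.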

Additional observations from a re-analysis of the deposited data

Results flagged for a closer look

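In 5 of the 146 sets of 4 libraries examined (each member in each group), 1 library lay far from the other 3, where chance gives about 1 in 20. OLZ mouse 13 was high for Esam, at 76 scaled counts, against 23 to 31 in the other OLZ mice, and for Cldn5, at 100, against 42 to 48. CTRL mouse 4 was high for Flt1, at 556, against 279 to 318 in the other CTRL mice, and for Sox17, at 25, against 9 to 11. MINO mouse 35 was low for Eng, a coreceptor of endothelial cells, at 32, against 50 to 53 in the other MINO mice. In 4 of the 5 sets the library was 1 of the 2 that stood high over the vessel genes as a whole. Opposite changes without overlap were looked for only between OLZ+MINO against OLZ and MINO against CTRL. No member was without overlap in either of these comparisons, so none could be found.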

How the results depend on the processing

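In OLZ against CTRL, 1 of 36 members (Abcc9) was called. The number was 2 with a pseudocount of 8, 2 with a minimum mean of 50 (Abcc9 and Slco1a4, of 23 members), 2 when only these groups were fitted and 4 with array quality weights (Abcc9, Slco1a4, Higd1b and Tie1). It was 0 at a threshold of 0.05, 0 without CTRL mouse 4 and OLZ mouse 13, and 0 when scaled to the mean of the vessel genes. Without 1 library it ranged from 0 to 2. In OLZ+MINO against OLZ, 1 member (Abcc9) was called, and the number was 2 with a minimum mean of 50 (Abcc9 and Mfsd2a), 0 without the intensity trend, 0 with array quality weights, 0 at a threshold of 0.05, 0 without the 2 libraries and 0 when scaled to the vessel genes, with a range of 0 to 2 without 1 library. When only OLZ+MINO and OLZ were fitted the number stayed 1, but the gene was Mfsd2a (adjusted p 0.28) and not Abcc9 (0.31). In the comparisons of OLZ+MINO with CTRL and of MINO with CTRL, 0 members were called under every alternative run. With scaling to the vessel genes the median of all genes was 0.12 in OLZ against CTRL, 0.08 in OLZ+MINO against OLZ, 0.19 in OLZ+MINO against CTRL and 0.26 in MINO against CTRL (under 0.01 as deposited). The share of called genes that rose was then 93.1% in OLZ against CTRL (50% as deposited) and 96.7% of 673 called genes in MINO against CTRL (0 called as deposited). By construction this scaling takes away most of the vessel genes' own shift, with medians of the members of -0.01 in OLZ against CTRL, -0.03 in OLZ+MINO against CTRL and 0.04 in MINO against CTRL. With quantile normalization these medians were -0.19, -0.25 and -0.37. For the other differences the cause was not tested. The log2 fold change of Abcc9 kept its sign in OLZ against CTRL (-0.63 to -0.37) and in OLZ+MINO against OLZ (0.28 to 0.44) under all alternatives. No paired analysis was possible because no mouse number occurs in more than 1 group. With 4 mice per group and 13 members under a mean of 50, precision is limited by replication and by low values.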
